A study of Homo sapiens with 2 samples.

Results

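The transcription factor NRF2 and the enzymes of xenobiotic metabolism were examined in A549 cells with and without TGF-β. A549 is a human lung carcinoma line that carries a mutant KEAP1. The genes were taken from a list of 43 that holds NRF2 (gene symbol NFE2L2), its inhibitor KEAP1, targets of NRF2, and enzymes and pumps that modify or export foreign compounds. Probe sets were assigned to them by the symbol in the platform annotation. Of the 43 genes, 40 had at least 1 probe set of their own, and the array measured 19775 named genes in all. AKR1B1, FTH1 and NR0B1 had none under their symbol and were not analysed here. The aryl hydrocarbon hydroxylase CYP1A1 was measured by 1 probe set that read 2.92 without TGF-β and 4.52 with it, below background on both arrays. This left 39 genes and 71 probe sets bright enough to compare.

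One culture received no cytokine, and the other was given TGF-β at 1 ng/ml and harvested at 12 h. No genetic change beyond those of the line itself is given in the labels for either group, so both carry the mutant KEAP1. There was 1 array per condition, so a difference has no replicate check and no p-value, and it cannot be told apart from the variation between 2 cultures. Signals are MAS5 intensities on a linear scale. A fold change compares the signals of the same probe set on the 2 arrays. The text says that a gene rose or fell where its brighter signal was 2 or more times the dimmer one. This threshold is one of size alone.

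NRF2 is a basic leucine zipper factor that KEAP1 holds in the cytoplasm and hands to a CUL3 ubiquitin ligase for degradation. Electrophiles and oxidants modify KEAP1, and NRF2 then enters the nucleus and binds antioxidant response elements together with small MAF proteins. Its targets make glutathione, reduce thioredoxin and quinones, supply NADPH and export conjugates. In lung carcinoma cells with mutant KEAP1 this control is lost and NRF2 is active without a stimulus.

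The background was read from 27 probe sets for Bacillus subtilis transcripts, the highest of which gave 45.8 in control cells and 56.6 in treated cells. The identity of the cells was checked against marker genes. All 6 epithelial markers were above background on both arrays. CDH1 fell 2.31-fold with TGF-β, from 1952 to 846, KRT19 read 1492 and 991, EPCAM 2176 and 1616, KRT7 17728 and 27547, KRT8 16817 and 19630, and KRT18 33810 and 38248. Of 5 alveolar type II markers measured, 4 were above background on both arrays, but their summed signal was only 501 without TGF-β and 473 with it. Of 5 leukocyte markers, 3 were above background on both arrays, with sums of 403 and 319. Of 5 fibroblast markers 2 were above background without TGF-β and none with it (sums of 173 and 127), and of 4 endothelial markers 1 was above background on both arrays (sums of 85.1 and 117). PTPRC, which marks all leukocytes, and CDH5, which marks endothelium, were below background on both arrays, while CD14 went from 190 to 63.0, and the part of other cell types in the results was not tested.

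Without TGF-β, the NRF2 and xenobiotic genes were among the bright signals of the array. All 39 were above background, as were 12127 of the 12375 genes that passed the same filter, so nothing is read from that count. Their median control signal was 12314, against 655 over all 12375 genes. A control signal of at least 10000 was found for 23 of the 39 genes (59.0%) and for 4.93% of all genes, and 36 of the 39 genes reached 1000, as did 40.8% of all genes. The 3 that did not were the oxidative stress growth inhibitor OSGIN1 at 580, the glutathione transferase GSTM3 at 495 and TRIM16L at 178. Probe sets differ in affinity and the genes were listed as known NRF2 targets, so these shares describe the list on this array and do not order the genes by amount of mRNA. With TGF-β the counts were 22 of 39 genes at 10000 or more and again 36 at 1000 or more, but not of the same genes throughout, since GCLC, GSR and IDH1 went below 10000 and GPX4 and ME1 above it.

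**Figure D1:**
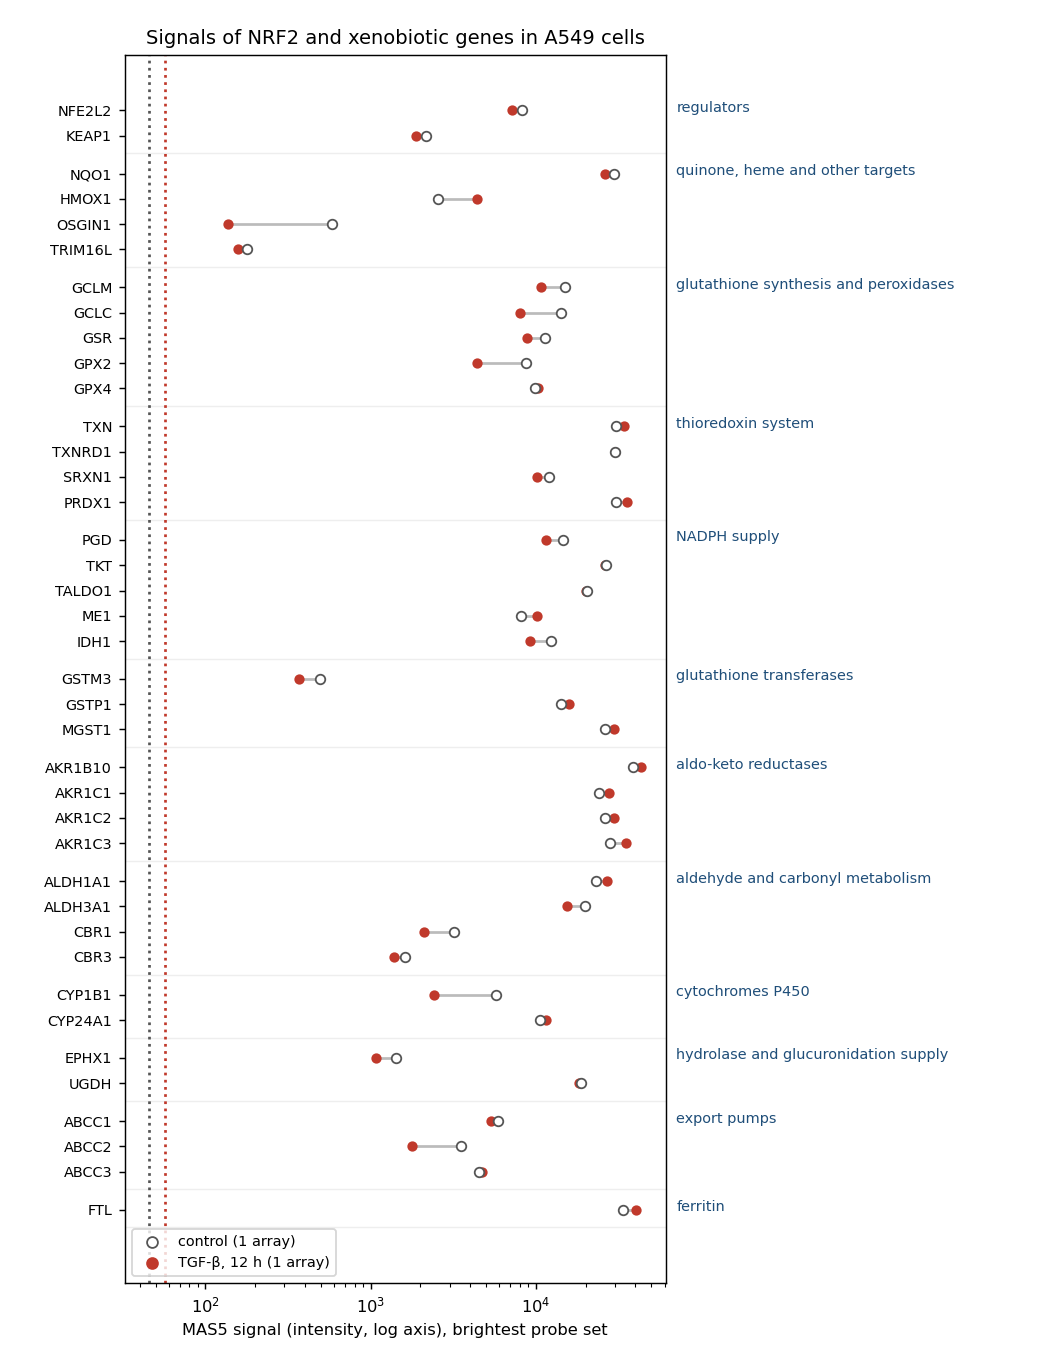
MAS5 intensity (log axis) of the brightest probe set of each of 39 genes, sorted by role, with open points for the untreated culture, red points for the culture given TGF-β for 12 h, and dotted lines at the background of each array (black 45.8, red 56.6). OSGIN1 and CYP1B1 have the widest gaps, and HMOX1 is the gene that is highest with TGF-β relative to control.

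After TGF-β, 2 of the 39 genes fell at least 2-fold, OSGIN1 and CYP1B1, and none rose that far. Over all genes, 2.96% fell and 3.94% rose by this rule, so 2 falls among 39 genes are not far from the share of the whole array. That share depends on brightness. With control signals below 1000, 325 of 7329 genes of the array and 1 of 3 listed genes (OSGIN1) fell. Between 1000 and 10000, 40 of 4436 genes and 1 of 13 listed genes (CYP1B1) fell. Nothing is read from these counts. At 1.5-fold, 6 genes were lower (OSGIN1, CYP1B1, ABCC2, GPX2, GCLC and CBR1) and 1 was higher (HMOX1), where 9.08% of all genes were lower and 9.16% higher. The median log2 fold change was -0.14 for the 39 genes and -0.03 for all genes. In total 23 of the 39 genes (59.0%) were below 0 and 16 above it, where 54.6% of all genes were below 0. In RNA from a whole culture, fewer cells that express a gene and less RNA per cell cannot be told apart.

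How far a gene moved went with how bright it was. Of 13 genes on the list with a control signal of at least 20000, all stayed within 1.5-fold, with log2 fold changes from -0.17 to 0.33 and a median of 0.17. The same held for all 182 genes of the array in this range, none of which differed by 1.5-fold and whose median log2 fold change was 0.15. Whether such signals were near the upper limit of the array, which read 40815 at most without TGF-β and 46258 with it, was not tested. For control signals between 1000 and 10000, 4 of 13 listed genes were at least 1.5-fold lower, against 3.94% of 4436 genes, and 1 was higher. Between 10000 and 20000, 1 of 10 was lower, GCLC, and in this range 4 of 428 genes of the array were. The median log2 fold change between 10000 and 20000 was -0.35 for the listed genes and 0.04 for all genes. Between 1000 and 10000 it was -0.19 and -0.06. The brightest probe sets of NQO1, TXN, TXNRD1, PRDX1, TKT, TALDO1, MGST1, AKR1B10, the AKR1C genes, ALDH1A1 and FTL are the 13 at 20000 or more.

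**Figure D2:**
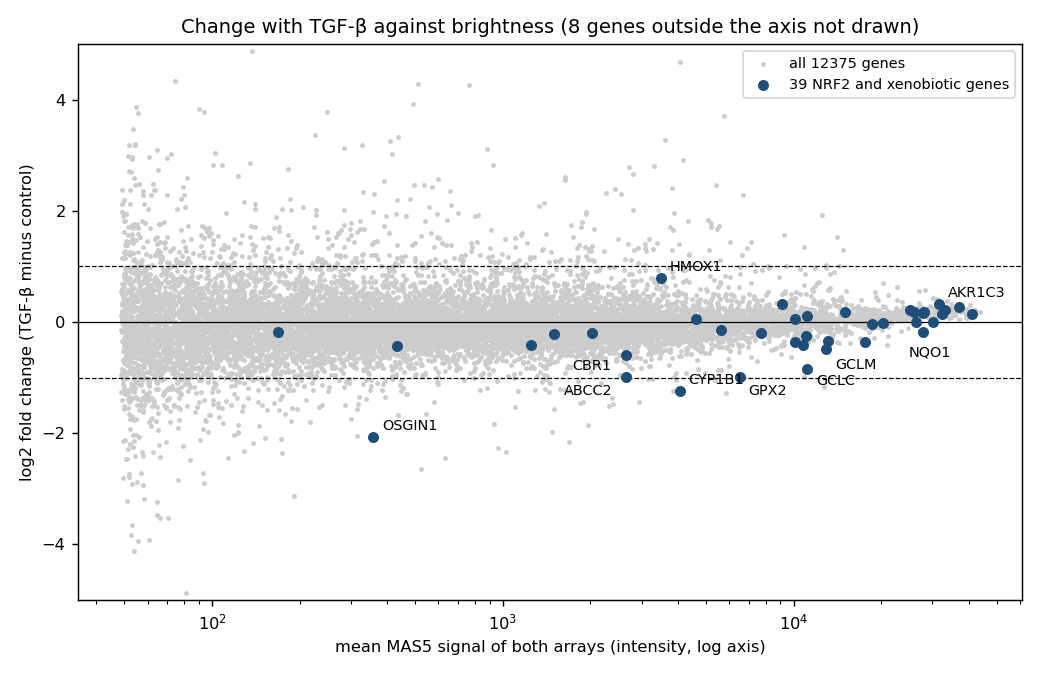
Log2 fold change with TGF-β (y axis) against the mean signal of both arrays (x axis, log scale) for 12375 genes (grey) and the 39 NRF2 and xenobiotic genes (blue); each point is 1 gene by its brightest probe set and dashed lines mark 2-fold. OSGIN1 and CYP1B1 lie below the lower dashed line, ABCC2 and GPX2 lie just above it, and the 13 blue points with control signals of at least 20000 lie between -0.17 and 0.33.

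The regulators themselves differed little. NFE2L2, which encodes NRF2, read 8239 in untreated and 7214 in treated cells, and KEAP1 read 2165 and 1894. The signals with TGF-β were 87.6% and 87.5% of control, and each log2 difference of -0.19 is close to or below the spread over probe sets of similar brightness, which was 0.18 for NFE2L2 and 0.28 for KEAP1. A dimmer NFE2L2 probe set read 191 and 125, and the dimmest 77.7 and 57.8, so all 3 were lower with TGF-β. The array measures mRNA, and NRF2 is controlled mainly through the stability of its protein.

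Of 5 genes of glutathione synthesis, reduction and peroxidases, none changed 2-fold by its brightest probe set, and GCLC and GPX2 were at least 1.5-fold lower with TGF-β. GCLC encodes the catalytic subunit of glutamate-cysteine ligase, the rate-limiting enzyme of glutathione synthesis. Its brightest probe set read 14238 without TGF-β and 7956 with it, or 55.9% of control, a log2 fold change of -0.84 where the spread was 0.17. A second probe set went from 5603 to 3330, or 59.4%, while the dimmest, near background, read 48.3 and 73.3. GCLM, the modifier subunit, had 3 bright probe sets that were all lower but by unequal amounts. They read 15092 and 10772, 5130 and 4874, and 6701 and 3137, which is 1.40-fold, 1.05-fold and 2.14-fold lower. GCLM passed 2-fold by the last of these probe sets alone.

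GPX2 encodes a glutathione peroxidase of epithelia and is a known NRF2 target. It read 8658 and 4378, which is 1.98-fold lower and just short of the rule. Its other probe set went from 132 to below background, a fall of at least 2.34-fold. Glutathione reductase (GSR), which regenerates glutathione with NADPH, read 11346 and 8833, and its second probe set 2727 and 2350. GPX4, the peroxidase of membrane lipids, read 9900 and 10239. By brightest probe set the largest differences of this group were thus in GPX2 and GCLC. The dimmer GPX2 probe set and 1 of the 3 GCLM probe sets differed more than these.

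NRF2 binds sites with the core TGACNNNGC, and the windows from 250 bases before to 50 bases after annotated starts in RefSeq (GRCh38.p14) were searched for these letters on both strands. The table held 31 of the 43 genes. A match was present for 11 of the 31 genes and for 16.1% of all genes in the table, or in 12 of 43 windows against 13.3% of all windows. Genes with several starts have several chances, and distant elements lie outside these windows. The core TGACTCAGC also contains TGACTCA, the site of AP-1, and this form occurred for GSTP1 and ME1. The following stretches, with the match in capitals, are shown because GCLM, GPX2 and CBR1 were lower with TGF-β by at least 1 bright probe set while TXNRD1 and GSTP1 differed by less than 1.2-fold; each is written 5′ to 3′ on the strand of the gene, in the build GRCh38.p14.
GCLM, chr1:93909436-93909484, minus strand, match starting 34 bases before the start: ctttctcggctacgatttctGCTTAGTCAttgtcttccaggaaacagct
GPX2, chr14:64942839-64942887, minus strand, match starting 122 bases before the start: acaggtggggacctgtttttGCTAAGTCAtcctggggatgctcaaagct
CBR1, chr21:36069845-36069893, plus strand, match starting 159 bases before the start: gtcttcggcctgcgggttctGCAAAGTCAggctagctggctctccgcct
TXNRD1, chr12:104215660-104215708, plus strand, match starting 99 bases before the start: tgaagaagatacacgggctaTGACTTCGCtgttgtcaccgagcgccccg
GSTP1, chr11:67583726-67583774, plus strand, match starting 66 bases before the start: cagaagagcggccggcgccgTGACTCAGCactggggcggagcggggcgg

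The match thus occurred both in genes with lower signals and in genes whose signals were level. In GCLM, GPX2 and CBR1 it lies on the strand opposite to the gene. TXNRD1 also has opposite-strand matches, starting 8 bases before the start shown and 102 bases before another start, neither of them printed above. IDH1 and EPHX1, at 74.7% and 74.9% of control, match on the strand of the gene. TXNRD1 lies in the range of at least 20000, where no gene of the array differed by 1.5-fold. Its level signal therefore cannot show whether the strand goes with the change, and nothing is read from the strand. The windows of GCLC, OSGIN1 and ABCC2 held no match, which says only that these letters are absent from them. No window was given for CYP1B1 or HMOX1. Binding was not measured, and a match is a description of the letters.

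Heme oxygenase and OSGIN1 stood at opposite ends of the list. HMOX1 encodes the inducible enzyme that breaks heme down to biliverdin, iron and carbon monoxide. Its single probe set read 2557 without TGF-β and 4415 with it, a 1.73-fold higher signal and the largest positive difference of the 39 genes by brightest probe set. The log2 fold change was 0.79 and the spread at this brightness 0.21. OSGIN1, which restrains cell growth under oxidative stress, went from 580 to 138, a 4.22-fold fall with a log2 fold change of -2.08 where the spread was 0.38. Both OSGIN1 signals were above background, but the gene also has only 1 probe set. NQO1 encodes a quinone reductase that is a widely used readout of NRF2. Its 3 probe sets read 29503 and 26213, 24382 and 26256, and 13487 and 12677, so 2 were slightly lower and 1 slightly higher. The log2 fold change of the brightest was -0.17 where the spread was 0.10, and -0.34 with quantile scaling. TRIM16L, a relative of the TRIM16 gene, read 178 and 158. Of these known targets, 1 was thus lower beyond 2-fold, and the deposited signals of the NQO1 probe sets did not share a direction.

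All genes of the thioredoxin system stayed within 1.5-fold. TXN, which encodes thioredoxin, read 30669 without TGF-β and 33931 with it. TXNRD1, the reductase that restores it, read 30030 and 30152. PRDX1, a peroxidase that uses thioredoxin, read 30571 and 35465, and SRXN1, which repairs overoxidized peroxiredoxins, read 12018 and 10108. Log2 fold changes of the 4 genes ranged from -0.25 to 0.21, where the spread was 0.17 for SRXN1 and 0.10 for the others. With quantile scaling the small positive values became -0.05 for TXN and 0.03 for PRDX1, and TXNRD1 was at -0.18, so no direction is given for them. SRXN1 was lower with equal medians and with quantile scaling, at -0.20 and -0.31.

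None of the enzymes that supply NADPH reached 1.5-fold either. Of the pentose phosphate pathway, PGD, its second dehydrogenase, read 14577 and 11565, or 79.3% of control. The brightest probe set of TKT, which encodes transketolase, read 26419 and 26329, and its dimmer ones 12778 and 11826, and 1469 and 1134. TALDO1, transaldolase, read 20272 and 20136. IDH1, the cytosolic isocitrate dehydrogenase, read 12314 and 9204 by 1 probe set and 11373 and 9233 by another, which is 74.7% and 81.2% of control. ME1, the cytosolic malic enzyme, read 8098 and 10115 by its brightest probe set but 7606 and 7381 by the next. PGD and IDH1 were thus lower by about the same fraction, while the bright probe sets of ME1 disagreed in direction.

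The aldo-keto reductases reduce steroids, prostaglandins and reactive aldehydes, and AKR1B10 and the AKR1C genes are well known NRF2 targets. AKR1B10 read 38862 without TGF-β and 43224 with it. AKR1C3 read 27974 and 35056, a 1.25-fold higher signal. AKR1C1 and AKR1C2 are nearly identical in sequence, and the identifiers of their bright probe sets mark shared targets, so the 2 genes are uncertain apart. The 2 such probe sets of AKR1C1 read 24231 and 27626, and 20955 and 24137. Those of AKR1C2 read 26147 and 29791, and 25520 and 27817. All 4 were therefore 1.09- to 1.15-fold higher.

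The dimmer AKR1C1 probe sets pointed the other way. One read 2681 and 1949, another 444 and 279, and the dimmest 108 and 64.5, which is 72.7%, 62.8% and 59.8% of control. The AKR1C2 probe set without the mark read 1858 and 1777. The log2 fold change of AKR1C1 was 0.19 by its brightest probe set, -0.46 by the median over probe sets and 0.05 with quantile scaling, so its direction depends on which probe set is read. For AKR1B10 quantile scaling gave -0.04 in place of 0.15, for AKR1C2 0.01 in place of 0.19, and for AKR1C3 0.14 in place of 0.33.

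**Figure D3:**
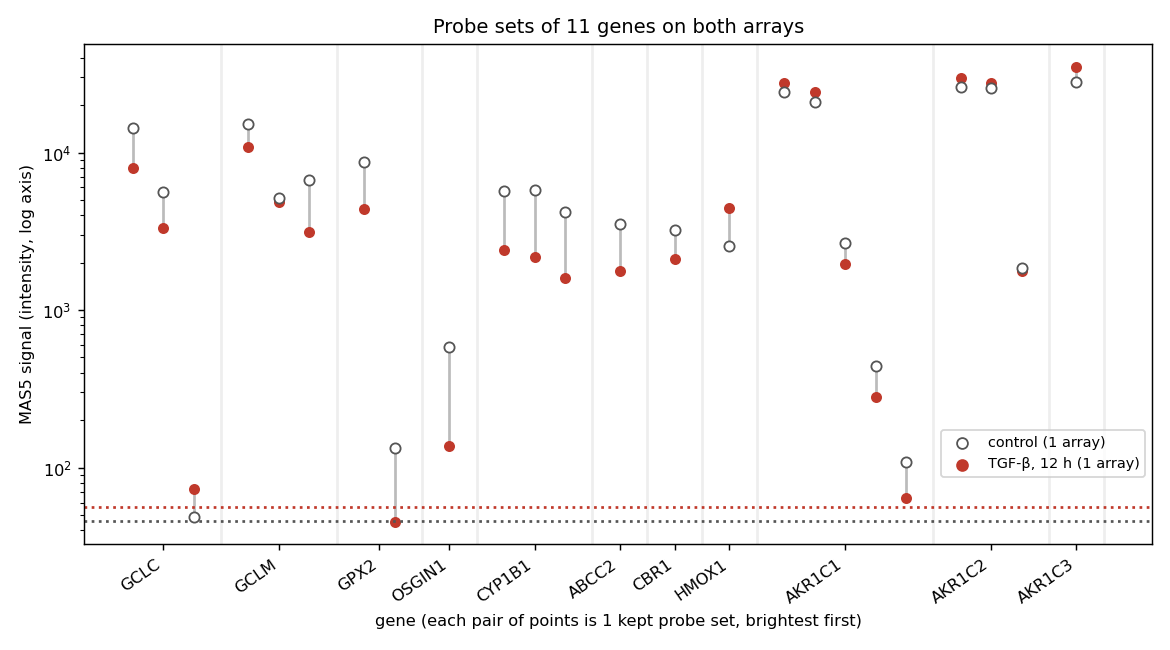
MAS5 intensity (log axis) of every kept probe set of 11 genes, brightest first within a gene, with an open point for the untreated culture, a red point for the culture given TGF-β, and dotted lines at the background of each (black 45.8, red 56.6). All 3 CYP1B1 probe sets are lower by similar distances, the 3 of GCLM by unequal ones, and those of AKR1C1 differ in direction.

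Glutathione transferases conjugate electrophiles with glutathione. GSTP1, the main form in lung, read 14127 and 15945, and the brightest probe set of MGST1, a membrane-bound form, read 26184 and 29484. GSTM3 read 495 and 367, or 74.1% of control. The 3 bright probe sets of MGST1 were 1.05- to 1.13-fold higher, and with quantile scaling the difference of the brightest vanished. None of the 3 genes reached 1.5-fold.

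Enzymes of aldehydes and carbonyls showed 1 difference of 1.5-fold. CBR1, a carbonyl reductase that acts on prostaglandins and anthracyclines, read 3200 without TGF-β and 2110 with it, or 65.9% of control, with a log2 fold change of -0.60 and a spread of 0.26. Its relative CBR3 read 1609 and 1383. ALDH3A1, an aldehyde dehydrogenase under the control of both NRF2 and the aryl hydrocarbon receptor, read 19814 and 15356, or 77.5% of control. ALDH1A1, which oxidizes retinal to retinoic acid, read 23212 and 26928. CBR1, CBR3 and ALDH3A1 thus had lower signals, and ALDH1A1 did not.

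CYP1B1 was the cytochrome P450 that fell. CYP1B1 oxidizes estrogens and polycyclic hydrocarbons and is a target of the aryl hydrocarbon receptor, a ligand-activated factor that pairs with ARNT. Its 3 bright probe sets read 5703 and 2401, 5772 and 2178, and 4221 and 1591, which is 42.1%, 37.7% and 37.7% of control. The fall was thus 2.38- to 2.65-fold in each of them. The fourth probe set was below background on both arrays. All 3 carry identifiers that mark shared targets, so no value of CYP1B1 remained when such probe sets were left out. CYP24A1, which inactivates vitamin D, read 10652 and 11486.

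In the list of the aryl hydrocarbon receptor pathway, 2 of 5 measured genes fell at least 2-fold and none rose, where 2.96% of all genes fell and 3.94% rose. AHR, which encodes the receptor, went from 824 to 261, a 3.16-fold fall with a log2 fold change of -1.66. AHRR, its repressor and itself a target, went from 141 to 62.7, or 2.25-fold, close to background. With 50 added to every signal the log2 fold change of AHRR was -0.76, which is less than 2-fold. TIPARP, another target, read 1504 and 1153, ARNT, the partner, read 641 and 658, and its relative ARNT2 read 67.9 and 73.1. CYP1A1, the best known target of the receptor, was below background throughout, as given above.

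Among the 3 export pumps of the main list, ABCC2 differed from ABCC1 and ABCC3. Of 5 further measured pumps, 4 were below 0, where 54.6% of all genes were, and ABCG2 had a log2 fold change of -0.97. ABCC2 (MRP2) exports glutathione and glucuronide conjugates across the apical membrane. Its single probe set read 3519 without TGF-β and 1771 with it, 1.99-fold lower and just outside the rule, with a log2 fold change of -0.99 where the spread was 0.25. The brightest probe set of ABCC1 (MRP1) read 5896 and 5354, while a dimmer one read 272 and 465. The brightest of ABCC3 (MRP3) read 4520 and 4685, and 3 further ones 661 and 650, 270 and 311, and 139 and 159. The dimmest ABCC3 probe set went from below background to 69.9, at least 1.52-fold higher, and the other 4 stayed within 1.2-fold.

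The remaining genes stayed within 1.5-fold. EPHX1, the microsomal epoxide hydrolase, read 1429 and 1071, or 74.9% of control. UGDH, which makes the UDP-glucuronate used for conjugation, read 18836 and 18344. FTL, the light chain of the iron store ferritin, read 33472 and 40395 by 1 probe set and 31562 and 36264 by another. Both probe sets of FTL may bind related transcripts by their identifiers, and with quantile scaling the log2 fold change of the brighter was 0.09 in place of 0.27.

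Other genes of the NRF2 pathway gave a similar picture. Of 10 measured partners and regulators, none changed 2-fold, where 2.96% of all genes fell and 3.94% rose. The median log2 fold change of the 10 was -0.09. CUL3, the ligase that receives NRF2 from KEAP1, read 7028 and 7056, BACH1, a repressor that competes for the same sites, read 1007 and 1012, and the small MAF partners MAFG and MAFF read 1212 and 1100, and 1071 and 1180. BTRC, part of a further ligase for NRF2, read 446 and 466. SQSTM1, an adaptor that sequesters KEAP1 and is also a target, read 10530 and 7942. PALB2, a DNA repair protein that binds KEAP1, had the lowest log2 fold change of this list, -0.63, with signals of 947 and 612. NRF2 and its partners showed no difference of 2-fold on these arrays. That is not far from the share of the whole array, so nothing is read from that count.

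Of 26 further measured NRF2 targets, none rose 2-fold and 2 had deposited signals over 2-fold lower, GSTM4 and UGT1A6, where 2.96% of all genes fell and 3.94% rose. Both read below background with TGF-β, so their falls are bounded at 1.89-fold or more each and a 2-fold fall is not shown. The median log2 fold change of these targets was -0.16. CYP4F3, a fatty acid hydroxylase, read 1819 and 943, or 51.9% of control. Glutaredoxin (GLRX) read 6399 and 4694 by its brightest probe set and 2929 and 1706 by the other. The cystine importer SLC7A11, which feeds glutathione synthesis, read 11306 and 12236, PTGR1, a prostaglandin reductase, read 21287 and 23168, and the transferase GSTO1 read 13967 and 15786. The identifiers of the GSTM4 and UGT1A6 probe sets mark shared targets. That of CYP4F3 does not, though binding to transcripts of its relatives was not tested. As in the main list, lower signals were found for some targets while others were level, and 19 of the 26 were below 0, where 54.6% of all genes were.

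**Figure D4:**
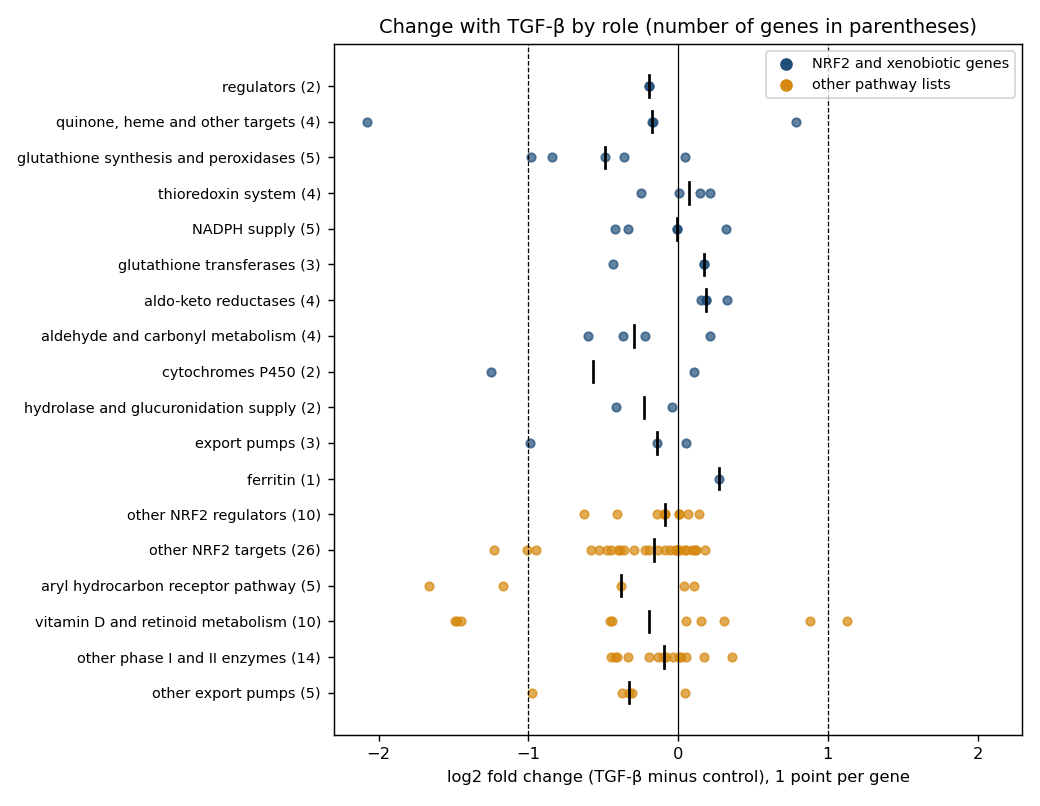
Log2 fold change with TGF-β of each gene (x axis) by role, for the 39 NRF2 and xenobiotic genes (blue) and the other pathway lists (orange); each point is 1 gene by its brightest probe set, black bars are medians, dashed lines mark 2-fold, and the number of genes is in parentheses. The group of glutathione synthesis and peroxidases has a median of -0.49, the aldo-keto reductases lie between 0.15 and 0.33, and AHR lies at -1.66.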

How the data were processed

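RNA of 1 untreated and 1 TGF-β-treated A549 culture was hybridized to Affymetrix arrays, 1 for each. The deposited values are linear intensities of probe sets that the authors obtained with MAS5, as named in the submitters' processing notes, whose version is not given in the sources used here. Leaving out the 2% highest and 2% lowest signals, both arrays averaged 500.1, so no further scaling was applied, and changes are relative to the array average.

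Ratios were computed in Python 3.11.15 (numpy 2.4.6, pandas 2.3.3) and figures drawn with matplotlib 3.10.9. Without control probes the array has 54613 probe sets. The annotation of the platform gave 41091 of them a single symbol and 1801 more than 1, and left 11721 unnamed. Symbols were updated through RefSeq identifiers (GRCh38.p14). A probe set was kept if its signals averaged at least 48.7, the median (27307 probe sets, 12375 genes), and the one with the highest mean represented its gene. The spread quoted beside a log2 fold change is taken over the 500 kept probe sets nearest in brightness, as 1.4826 times their median absolute deviation, and is not replicate error. The scripts were tested on simulated data.

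Every listed gene was accounted for. Both signals were given for genes changed at least 1.5-fold and for those that define a role, all kept probe sets for the AKR1C genes and for genes that any kept probe set placed past 2-fold, and up to 3 of the largest changes in each direction of every other list. Some signals below background were given only as such. GLRX, CUL3, ALDH1A3 and some others were added for their function. The genes, lists and rules were chosen with earlier results of these data known. Alternatives were 2 filters, an offset, a background floor, 2 scalings and 3 choices of probe set. Having 1 array per condition allows no test, interval or p-value and limits the precision.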

Additional observations from a re-analysis of the deposited data

How the results depend on the processing

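No setting says how the signals would vary in a repeat of the cultures. The 2 falls, OSGIN1 and CYP1B1, and the absence of rises were the same with no filter, with the filter at the 75 percentile (mean signal 349), with an offset of 50, with signals under background raised to it, and with equal medians or quantile scaling. With the median over probe sets GPX2 also passed, giving 3. With the probe set of largest change 4 genes were lower, GCLM and GPX2 being added, and 1 was higher, ABCC3, whose control signal was below background, so that its rise is bounded only at 1.52-fold or more. Without probe sets marked as sharing targets 33 genes were left, of which 1 was lower, OSGIN1, and 1 higher, ABCC3. The median log2 fold change of the listed genes stayed between -0.19 and -0.09. Among all genes the rises numbered 487 and the falls 366. Dropping the filter gave 2110 rises and 2395 falls, the stricter one 197 and 63, and the offset 295 and 134. Falls numbered 205 with the background floor and 596 when each gene was read from its most changed probe set. These settings change how dim signals or probe sets are chosen or weighted, and the cause was not tested. Quantile scaling moved 12 of the 39 genes by more than the spread at their brightness. No paired analysis was possible because each condition has 1 array and the result comes from no test.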

Other observations

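Among 10 measured genes of vitamin A and vitamin D metabolism, 2 fell and 1 rose at least 2-fold with both signals above background, where 2.96% of all genes fell and 3.94% rose by the deposited signals. RDH10, which oxidizes retinol to retinal, went from 2689 to 982, a 2.74-fold fall, and its other bright probe sets from 2059 to 523 and from 362 to 113. DHRS9, another retinol dehydrogenase, went from 468 to 168, and its 2 further probe sets fell 2.61-fold and 3.33-fold. DHRS3, which reduces retinal back to retinol, went the other way, from 997 to 2179, a 2.19-fold rise. The retinal-oxidizing enzyme ALDH1A3 read 439 and 324, and the retinoic acid receptor RARB read 1149 and 1422. The signals of RDH10 and DHRS9 were thus lower and that of DHRS3 higher. The list does not cover every enzyme of these steps, and retinoids were not measured. The vitamin D receptor VDR read 475 and 875 by its brightest probe set and 438 and 785 by the next, which is 1.84-fold and 1.79-fold higher, while its target CYP24A1 was 1.08-fold higher. CYP27B1, which activates vitamin D, went from 81.4 to below background, a fall of at least 1.44-fold, so that a 2-fold fall is not shown although its deposited signals differ by more.

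None of 14 measured further enzymes of drug metabolism changed 2-fold, where 2.96% of all genes fell and 3.94% rose. The largest differences by brightest probe set were in CES2, a carboxylesterase, which read 1069 and 783, in the sulfotransferase SULT1A1, which read 985 and 736, and in CYP3A5. CYP3A5 read 402 and 303 by its brightest probe set and 395 and 240 by the next. In the other direction the sulfotransferase SULT2B1 read 114 and 146, and UGP2, which makes UDP-glucose, read 7701 and 8683. Of 5 measured further pumps none changed 2-fold, beside the same shares of all genes. Nothing is read from either count. ABCG2, which exports porphyrins and many drugs, read 1877 and 956, or 50.9% of control. ABCB10 read 4977 and 3837, ABCC5 read 438 and 349, ABCC4 read 1994 and 1607, and ABCC10 read 716 and 741.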
